A study of Mus musculus with 29 samples.

Results

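RNA of the aortic arch was compared between ApoE KO mice that received angiotensin II (AngII) together with a sclerostin antibody (Scl-Ab) and wild-type (WT) mice. These groups make up 20 of the 29 libraries of the study, 10 labelled Scl-Ab and 10 labelled WT, and were taken from the library titles. All animals were male C57BL/6 mice on a chow diet with a labelled age of 14 weeks. The Scl-Ab group lacked ApoE, carried a pump releasing AngII (15.27 mg/mL at 0.11 µL/hr) and was injected subcutaneously with antibody at 10 mg/kg each week for 4 weeks. The WT group had normal Apoe, and both its pump and its injections held vehicle. A further 9 libraries came from ApoE KO mice with the same AngII pump and vehicle injections, called the vehicle group here. The Scl-Ab and WT groups therefore differ in genotype, AngII and antibody together, and these cannot be told apart without the vehicle group. Genotype and AngII cannot be told apart at all.

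Lack of ApoE, the lipoprotein ligand that clears remnant particles from plasma, makes mice prone to atherosclerosis. AngII is a vasoconstrictor peptide, and its infusion into ApoE KO mice is a common model of aortic inflammation, aneurysm and rupture. In such disease, smooth muscle cells lose contractile proteins, macrophages enter the wall, and collagen and proteases are made at the same time. Sclerostin, the product of Sost, is secreted by bone cells and by vascular smooth muscle, binds the Wnt co-receptors LRP5 and LRP6 and inhibits Wnt signalling. Antibodies against it raise bone mass. The comparison addresses the vascular safety of the antibody, here as the question which changes of the diseased aorta were present in mice that received it.

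Per the labels, mice died early in both ApoE KO groups, mainly of aortic rupture, so the libraries describe survivors. The labels give 9 WT mice for 10 WT libraries, so n counts libraries, and p-values measure the spread between libraries. Values are FPKM-like and read depth is unknown. Libraries had been brought to a common upper level, with 85th percentiles between 6.99 and 7.30, and 12558 to 13397 genes had a value of at least 1. The median correlation of a library with its own group was 0.976 to 0.989 in WT, 0.943 to 0.979 with vehicle and 0.930 to 0.975 with Scl-Ab. Scl-Ab library 17 was the lowest of these and lay apart from the other 28 on the third principal component. The spread was larger with Scl-Ab than in WT for 83.8% of tested genes. Smooth muscle markers were among the highest values in every library: Acta2, smooth muscle actin, was at 8543 to 11569.5 (median 9502) in WT and 2608 to 6048 (median 4767) with Scl-Ab. Fibroblast (Pdgfra), endothelial (Cdh5) and adipocyte (Adipoq) markers were present as well.

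Apoe itself checked the labels (GENCODE M21 on GRCm38, chromosome 7, 19696109 to 19699188). It ran from 146 to 363 (median 284) in WT, from 3.32 to 9.23 (median 7.08) with vehicle and from 4.64 to 12.5 (median 8.33) with Scl-Ab. The ApoE KO libraries all lay far below the WT libraries. The log2 difference of Scl-Ab from WT was -4.83 ± 0.17 (± gives the standard error throughout, n = 10 and 10 libraries), and between the ApoE KO groups it was 0.26, 95% interval -0.10 to 0.63, and did not pass (limma adjusted p = 0.381).

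In the Scl-Ab group the aorta differed from WT across much of the transcriptome. Macrophage, cytokine, antigen presentation, interferon, matrix and cell cycle genes were higher than in WT, and contractile smooth muscle genes and Sost were lower. Of 13510 tested genes, 6808 differed from WT (limma with Benjamini-Hochberg adjustment, adjusted p under 0.05), or 50.4%. Of all tested genes 19.8% were called higher (2681) and 30.5% lower (4127). The larger changes were mostly rises: 599 genes were at least 2-fold higher and 192 at least 2-fold lower. The share of higher genes among calls was 39.4% as deposited and 53.1% after TMM scaling, a rescaling of the libraries on the bulk of their genes. In 775 genes (5.74%) all 10 Scl-Ab libraries lay above all 10 WT libraries, and in 884 (6.54%) all lay below.

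The largest rise was Spp1 (chromosome 5, 104435118 to 104441050), which encodes osteopontin, a secreted phosphoprotein of macrophages and mineralizing tissue. Spp1 ran from 1.43 to 4.72 (median 2.53) in WT, from 202 to 1524 (median 536) with vehicle and from 221 to 1200.2 (median 594) with Scl-Ab. Every ApoE KO library was far above every WT library, and the antibody and vehicle groups overlapped. The rise over WT was 166-fold on the log2(value + 1) scale (log2 7.38 ± 0.29, limma adjusted p = 1.15e-17). Against vehicle the log2 difference was 0.12, 95% interval -0.49 to 0.73. Cd5l, a scavenger receptor family protein secreted by macrophages, was at 0 to 0.0898 (median 0) in WT, 10.6 to 423 (median 87.6) with vehicle and 14.3 to 176 (median 31.9) with Scl-Ab. Saa3, an acute phase serum amyloid, was at 0 to 0.283 (median 0) in WT, 1.17 to 35.4 (median 8.75) with vehicle and 3.76 to 129 (median 28.5) with Scl-Ab. For both genes the Scl-Ab and WT libraries did not overlap, and the Scl-Ab median was below that of vehicle for Cd5l (log2 -1.21, 95% interval -2.09 to -0.33, limma adjusted p = 0.077) and above it for Saa3 (log2 1.34, 95% interval 0.32 to 2.36, limma adjusted p = 0.0905). Neither of these differences passed.

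The remaining 9 of the 12 largest rises covered the same kinds of genes. Mmp12, the macrophage elastase, was at 0.116 to 1.27 (median 0.518) in WT and 8.16 to 79.1 (median 30.4) with Scl-Ab, and Ctss, an elastin-degrading cathepsin, at 5.72 to 20.6 (median 13.4) and 86.8 to 286 (median 159). Mpeg1, a pore-forming protein of phagocytes, was at 0.671 to 2.73 (median 1.38) and 20.0 to 75.9 (median 40.5). Thbs1, the matricellular protein thrombospondin 1, was at 3.34 to 8.07 (median 5.14) and 45.0 to 260.0 (median 103), and Col8a1, a short-chain collagen of the vessel wall, at 1.05 to 4.04 (median 2.28) and 15.3 to 89.1 (median 49.6). In each of these genes all Scl-Ab libraries lay above all WT libraries. Lcn2, an iron-siderophore binding protein, rose by log2 4.05 ± 0.32, Serpina3n, a serine protease inhibitor, by 3.57 ± 0.26 and the chemokine Ccl8 by 3.57 ± 0.29. Cthrc1, a secreted protein of activated fibroblasts, was the exception to this separation: it was at 0.345 to 1.96 (median 0.848) in WT and 1.40 to 205 (median 20.1) with Scl-Ab, with the lowest Scl-Ab library inside the WT range.

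**Figure D1:**
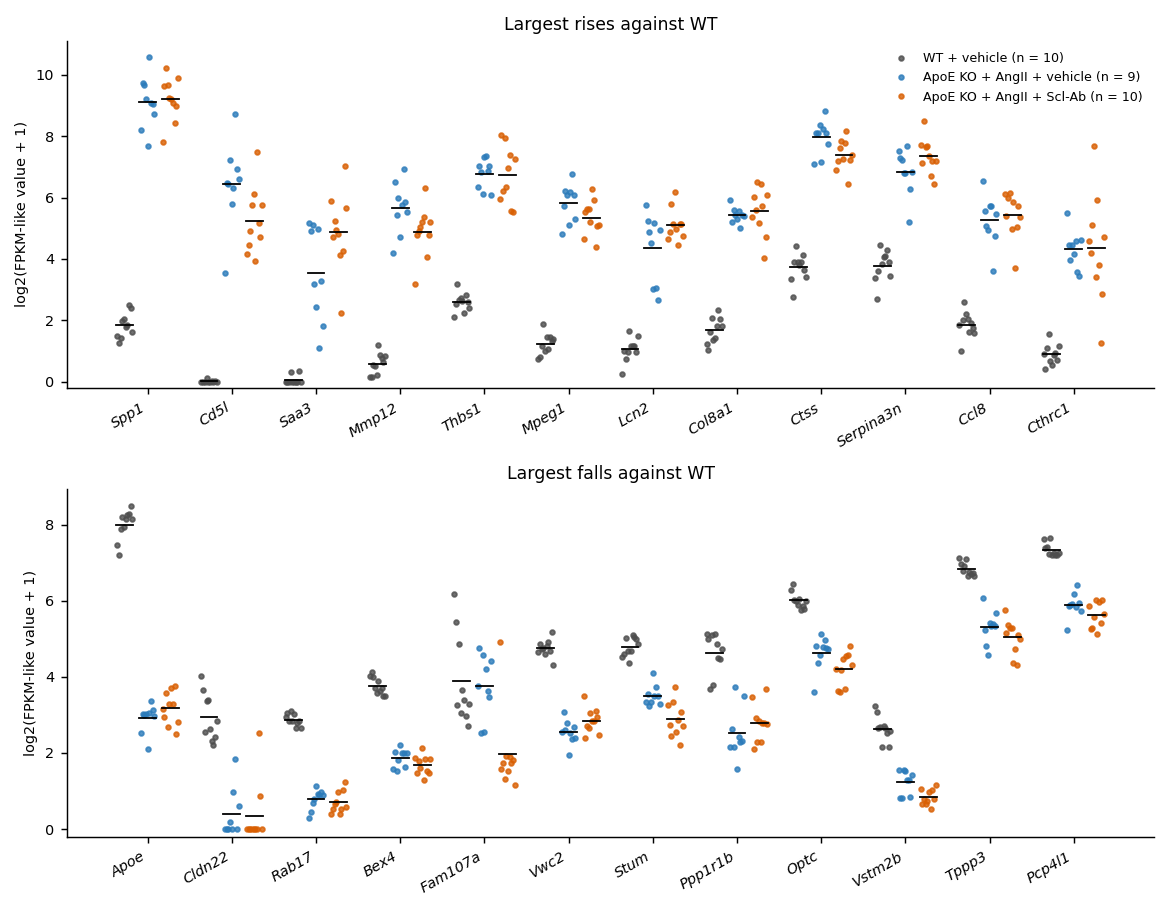
Points are single libraries on a log2(value + 1) axis for the 12 largest rises (top) and 12 largest falls (bottom) of the Scl-Ab group against WT, with group means as lines. The Scl-Ab libraries overlap WT in Cthrc1, Cldn22 and Fam107a of the 24 genes, and overlap the vehicle libraries in all 24.

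The falls were smaller than the rises. After Apoe they were led by Cldn22, a claudin family member, at 3.63 to 15.2 (median 5.67) in WT and 0 to 4.77 (median 0) with Scl-Ab, where it was listed at 0 in most libraries. Rab17, a small GTPase of vesicle transport, was at 5.29 to 7.63 (median 6.19) in WT and 0.315 to 1.36 (median 0.541) with Scl-Ab. Bex4 was at 10.2 to 16.5 (median 12.1) and 1.43 to 3.37 (median 2.25), and Ppp1r1b, an inhibitor of protein phosphatase 1, at 11.8 to 34.0 (median 27.1) and 3.27 to 11.8 (median 5.93). Rab17, Bex4 and Ppp1r1b did not overlap between the groups, while the highest Scl-Ab library of Cldn22 reached into the WT range. Vwc2, a secreted antagonist of bone morphogenetic proteins (log2 -1.90), Optc, a small leucine-rich proteoglycan (-1.81), Tppp3, a tubulin binding protein (-1.80), Pcp4l1 (-1.73) and Vstm2b (-1.80) fell with no overlap. In Stum the fall was larger with Scl-Ab than with vehicle: its values were 19.7 to 33.5 (median 26.5) in WT, 8.41 to 16.1 (median 10.2) with vehicle and 3.66 to 12.4 (median 5.94) with Scl-Ab, and the log2 difference between the ApoE KO groups was -0.62, 95% interval -0.93 to -0.31 (limma adjusted p = 0.0163), a call that ended with equal totals per library (0.0555).

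Macrophage genes were higher than in WT almost without exception. Of 24 tested members of the macrophage list, 23 rose and Cd163, a scavenger receptor of resident macrophages, did not pass, and in 22 of the 24 all Scl-Ab libraries lay above all WT libraries. The median log2 difference of the list was 1.96, against -0.06 over all tested genes. Among all tested genes 19.8% were higher, and in 5.74% all Scl-Ab libraries lay above all WT libraries. Lyz2, which encodes lysozyme, was at 54.0 to 185 (median 116) in WT, 622 to 2210.1 (median 1014) with vehicle and 504 to 1129 (median 711) with Scl-Ab. Cd68, an endosomal glycoprotein of macrophages, was at 1.91 to 8.32 (median 5.02), 28.9 to 110.3 (median 54.8) and 26.3 to 64.8 (median 38.9), and Trem2, a lipid-sensing receptor of foamy macrophages, rose by log2 3.37 ± 0.25. The summed level of the list was 152 to 527 in WT (median 366), 1369 to 4369 with vehicle (median 2273) and 1117 to 2620 with Scl-Ab (median 1725). These are levels in bulk tissue, in which more cells of a type and more RNA per cell cannot be told apart.

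Against vehicle, 1 macrophage member was called, Clec7a (the beta-glucan receptor dectin-1), which was lower: 6.75 to 60.6 (median 22.4) with vehicle and 4.14 to 27.04 (median 11.6) with Scl-Ab (log2 -0.89, 95% interval -1.44 to -0.35, limma adjusted p = 0.0397). The call ended with equal totals per library, and without vehicle library 2, 3, 4, 6, 7 or 8 or Scl-Ab library 10, 11, 12, 17 or 18. The median of the list against vehicle was -0.25, against -0.01 over all genes, and 649 of all tested genes (4.80%) were called lower.

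Other immune lists rose against WT as well, and their calls against vehicle are named where there were any. Of 25 chemokine and cytokine genes, 23 rose. Ccl2, the monocyte chemoattractant, was at 0.482 to 2.39 (median 1.17) in WT and 3.40 to 21.1 (median 9.70) with Scl-Ab, and Il6 at 0 to 0.236 (median 0.0537) and 0.170 to 7.67 (median 3.18). Il6, and Il7r below, were under 1 in every WT library and passed the filter on low values through the ApoE KO libraries alone. For both, being tested and being higher than WT are linked. Vcam1, the endothelial and smooth muscle receptor for monocytes and lymphocytes, was at 18.1 to 40.5 (median 29.5) in WT, 89.8 to 217 (median 139) with vehicle and 87.1 to 214 (median 158) with Scl-Ab. It was among 8 of 12 leukocyte adhesion genes that rose, with Itgb2, a leukocyte integrin subunit (log2 2.35), while Mcam, a cell adhesion molecule of smooth muscle and endothelium, fell (log2 -1.22). All 8 tested genes of MHC class II presentation rose, with H2-Ab1, a class II chain, at 12.7 to 49.0 (median 22.7) and 52.3 to 183 (median 87.7). Of 15 complement genes 12 rose, led by the anaphylatoxin receptor C3ar1 (log2 2.16 ± 0.18), and Cd59a, an inhibitor of the membrane attack complex, was lower against vehicle (log2 -0.31, 95% interval -0.51 to -0.12), a call that ended without most single libraries of the ApoE KO groups. Lymphocyte genes were low: of 18 T cell and thymocyte genes 1 passed the filter on low values, Il7r, at 0.0466 to 0.114 (median 0.0746) in WT, 2.37 to 8.85 (median 4.98) with vehicle and 1.39 to 5.84 (median 2.48) with Scl-Ab. Il7r was called lower than with vehicle (log2 -0.73). Each of the 5 tested genes of B and plasma cells was higher than in WT. Cd38 among them was lower than in vehicle (log2 -0.56, 95% interval -0.81 to -0.31, limma adjusted p = 0.00783). Of 9 tested neutrophil and mast cell genes 4 rose.

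Interferon response genes rose by smaller amounts. Of 21 tested members, 20 rose and Irf1 did not pass, with a median log2 difference of 0.96, and in 7 the groups did not overlap. Among all tested genes 19.8% were higher, and in 5.74% all Scl-Ab libraries lay above all WT libraries. Oas1a, a sensor of double-stranded RNA, was at 0.227 to 1.02 (median 0.471) in WT and 1.75 to 8.58 (median 3.25) with Scl-Ab. Isg15, a ubiquitin-like modifier, was at 1.92 to 3.40 (median 2.57) in WT, 4.80 to 13.8 (median 8.77) with vehicle and 3.49 to 22.4 (median 5.44) with Scl-Ab. Ifit3, an RNA-binding effector, was at 3.73 to 21.8 (median 8.91), 8.84 to 30.1 (median 12.6) and 13.8 to 43.5 (median 25.7). The core letters of the interferon-stimulated response element, GAAA and GAAA parted by 2 bases, on either strand, were looked for in promoter windows of 300 bases (250 before to 50 after the transcript start) from RefSeq on GRCm38.p6. Of 32851 windows 1131 held them (3.44%), and of the 16 interferon genes with a window 10 did (62.5%). The windows of Isg15 (chr4:156200769-156201068, minus strand) and Ifit3 (chr19:34583279-34583578, plus strand) are shown because both genes rose and hold more than 1 match. In Isg15 the 3 matches overlap on the gene's own strand, and in Ifit3 the 2 matches lie on the other strand. They read 5′ to 3′ along the gene, with matches in capitals.
Isg15: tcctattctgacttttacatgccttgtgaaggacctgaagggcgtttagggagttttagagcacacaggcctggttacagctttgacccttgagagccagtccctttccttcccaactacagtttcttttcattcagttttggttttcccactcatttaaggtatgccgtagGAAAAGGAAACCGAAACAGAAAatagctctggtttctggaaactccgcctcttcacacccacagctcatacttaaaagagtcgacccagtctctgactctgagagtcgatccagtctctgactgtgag
Ifit3: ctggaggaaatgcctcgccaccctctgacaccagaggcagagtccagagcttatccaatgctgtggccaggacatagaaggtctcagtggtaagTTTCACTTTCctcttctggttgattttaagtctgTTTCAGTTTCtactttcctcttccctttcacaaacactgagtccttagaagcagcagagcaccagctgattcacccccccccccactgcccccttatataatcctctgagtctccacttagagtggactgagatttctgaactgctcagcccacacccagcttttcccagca

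Matrix genes rose in the antibody group. The shares over all tested genes, to set beside the counts below, were 19.8% higher and 30.5% lower. Of 28 genes of fibrillar matrix and cross-linking 22 rose and 1 fell (Col6a2, log2 -0.26, a call that ended after TMM scaling and with equal totals), with a median log2 difference of 0.85. Col1a1, the main chain of type I collagen, was at 203 to 249 (median 217) in WT, 371 to 673 (median 464) with vehicle and 384 to 1485 (median 513) with Scl-Ab. Col3a1, the chain of type III collagen, was at 328 to 466 (median 408), 544 to 1354 (median 835) and 541 to 2598 (median 884), and Fn1, fibronectin, at 262 to 399 (median 313), 568 to 1139 (median 864) and 582 to 1354 (median 825). In these 3 genes all Scl-Ab libraries lay above all WT libraries. Loxl2, a collagen cross-linking oxidase, rose by log2 1.58 ± 0.17 and Tnc, tenascin C, by 1.64 ± 0.19. Against vehicle the log2 difference was 0.30, 95% interval -0.06 to 0.65, for Col1a1, 0.13, 95% interval -0.29 to 0.55, for Col3a1 and -0.09, 95% interval -0.37 to 0.20, for Fn1, and the groups overlapped. Of 17 elastic fibre genes 9 rose and 1 fell: Ltbp2, a microfibril-associated protein, rose by 1.69 ± 0.11, Eln, the elastin precursor, by 0.69 ± 0.25 (a call that ended without WT library 26), while Ltbp4, which binds latent TGF-beta and supports elastic fibre assembly, was lower (-0.85 ± 0.09).

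Among 31 matrix proteases and inhibitors 21 rose, against 19.8% of all tested genes. Timp1, an inhibitor of metalloproteinases, was at 20.4 to 41.6 (median 30.5) in WT, 171 to 342 (median 256) with vehicle and 174 to 549.5 (median 303) with Scl-Ab, a rise of log2 3.30 ± 0.17 with no overlap. Mmp2 rose by 1.61 ± 0.21 and Ctsk by 1.45 ± 0.18. Adamts15, an aggrecan and versican protease, was lower than in vehicle (log2 -1.17, 95% interval -1.72 to -0.63) and did not pass against WT (-0.57). Of 23 lysosome genes 18 rose, again against 19.8% of all tested genes. Atp6v0d2, a subunit of the lysosomal proton pump found in osteoclasts and macrophages, was at 0.0400 to 0.306 (median 0.0898) in WT, 3.19 to 52.1 (median 16.9) with vehicle and 3.67 to 24.6 (median 6.94) with Scl-Ab. It was above WT in every library and below vehicle at the median (log2 -1.15, 95% interval -1.78 to -0.51, limma adjusted p = 0.0251), though it overlapped vehicle. The call against vehicle ended with equal totals per library and by the Wilcoxon test. Under 1 in every WT library, Atp6v0d2 passed the filter on low values through the ApoE KO libraries alone. Its being tested and being higher than WT are linked.

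Genes of bone, cartilage and calcification were examined because the antibody targets a bone protein. Of 20 tested members 12 rose and 2 fell against WT, while 19.8% of all tested genes rose and 30.5% fell. Mgp, matrix Gla protein, which inhibits calcification of arteries, was at 6008 to 7790.4 (median 6760.3) in WT, 6634 to 18229 (median 13810.2) with vehicle and 11048 to 20098 (median 14542) with Scl-Ab. Tnfrsf11b, which encodes osteoprotegerin, was at 5.08 to 12.9 (median 8.02), 15.6 to 64.4 (median 29.7) and 19.8 to 72.5 (median 45.3). The Scl-Ab libraries lay above WT in both, and overlapped vehicle. Runx2, the osteoblast transcription factor, was low throughout, at 0.275 to 0.526 (median 0.448) in WT, 0.621 to 1.20 (median 1.03) with vehicle and 0.822 to 1.96 (median 1.45) with Scl-Ab, and was higher with antibody than with vehicle (log2 0.30, 95% interval 0.15 to 0.46, limma adjusted p = 0.018). Sox9, the chondrocyte transcription factor, was at 1.65 to 3.37 (median 1.92), 1.21 to 2.74 (median 2.39) and 2.00 to 6.84 (median 3.85), with overlap (log2 against vehicle 0.65, 95% interval 0.37 to 0.93). Among BMP ligands, which direct bone formation, Bmp2 was also higher than with vehicle (0.40, a call that ended without vehicle library 1 and under most alternatives run) and Bmp6 lower (-0.89, 95% interval -1.26 to -0.52). Neither passed against WT (-0.12 and -0.16). Osteocyte and osteoblast genes (Dmp1, Mepe, Bglap and Sp7) did not pass the filter on low values.

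Contractile smooth muscle genes were lower in the antibody group. Of 24 tested members 20 fell, 1 rose and 3 did not pass, and in 14 all Scl-Ab libraries lay below all WT libraries. The median log2 difference of the list was -0.88. Among all tested genes 30.5% were lower, and in 6.54% all Scl-Ab libraries lay below all WT libraries. Myh11, the smooth muscle myosin heavy chain, was at 1097 to 1296 (median 1197) in WT, 274 to 652 (median 508) with vehicle and 304 to 716 (median 524) with Scl-Ab, a log2 difference from WT of -1.33 ± 0.14. Myl9, the regulatory light chain, was at 4492 to 5449.8 (median 4672), 977 to 2890.3 (median 2076) and 1154 to 2812 (median 2005). Actg2, gamma smooth muscle actin (log2 -1.46 ± 0.16), and Cnn1, calponin (-0.79 ± 0.20), fell too. Synpo2, an actin-bundling protein, was lower with antibody than with vehicle, at 57.8 to 168 (median 91.9) and 40.6 to 88.9 (median 68.0) (log2 -0.59, 95% interval -0.90 to -0.28, limma adjusted p = 0.0182), a call that ended with equal totals per library and by the Wilcoxon test. Myocd, the coactivator that drives these genes with SRF, did not pass (log2 0.07 ± 0.24). The CArG box, the SRF binding motif, was found in 535 of the 32851 windows (1.63%) and in those of 4 of the 19 contractile genes with a window (21.1%), namely Filip1l, Myl6, Myl9 and Vcl. The Myl9 window (chr2:156775214-156775513, plus strand, GRCm38.p6) is shown, with the match, which reads on both strands, in capitals.
Myl9: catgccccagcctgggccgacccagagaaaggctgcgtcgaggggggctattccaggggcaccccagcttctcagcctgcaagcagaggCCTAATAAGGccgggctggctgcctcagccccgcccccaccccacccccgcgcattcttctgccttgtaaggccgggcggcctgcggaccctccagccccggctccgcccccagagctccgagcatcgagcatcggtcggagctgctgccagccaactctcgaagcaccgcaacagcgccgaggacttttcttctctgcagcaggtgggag

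Among 15 tested genes of the renin-angiotensin, endothelin and natriuretic list 7 fell and 5 rose, and 3 rose without Scl-Ab library 10. For this list and the ion channel list below, the shares over all tested genes were 30.5% lower and 19.8% higher. Gucy1a3, a subunit of the nitric oxide receptor, was at 68.2 to 88.8 (median 77.2) in WT, 21.9 to 39.5 (median 31.2) with vehicle and 23.4 to 40.7 (median 31.3) with Scl-Ab, without overlap of either ApoE KO group with WT. Its partner subunit Gucy1b3 (log2 -1.04 ± 0.12), the cGMP phosphodiesterase Pde5a (-0.88 ± 0.10) and the natriuretic peptide receptor Npr1 (-0.78 ± 0.10) were lower than in WT. Ace, which forms AngII, rose by 0.83 ± 0.15, and Ren1, renin, fell (log2 -0.47 ± 0.16). The AngII receptor Agtr1a did not pass (0.07 ± 0.18). Of 18 smooth muscle ion channel and calcium pump genes 11 fell and 1 rose. The gene that rose was the mechanically gated channel Piezo1 (log2 0.84 ± 0.08). Itpr1, the inositol trisphosphate receptor, was lower than in vehicle as well (log2 -0.26, 95% interval -0.38 to -0.13, limma adjusted p = 0.013), which ended with equal totals per library and by the Wilcoxon test.

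**Figure D2:**
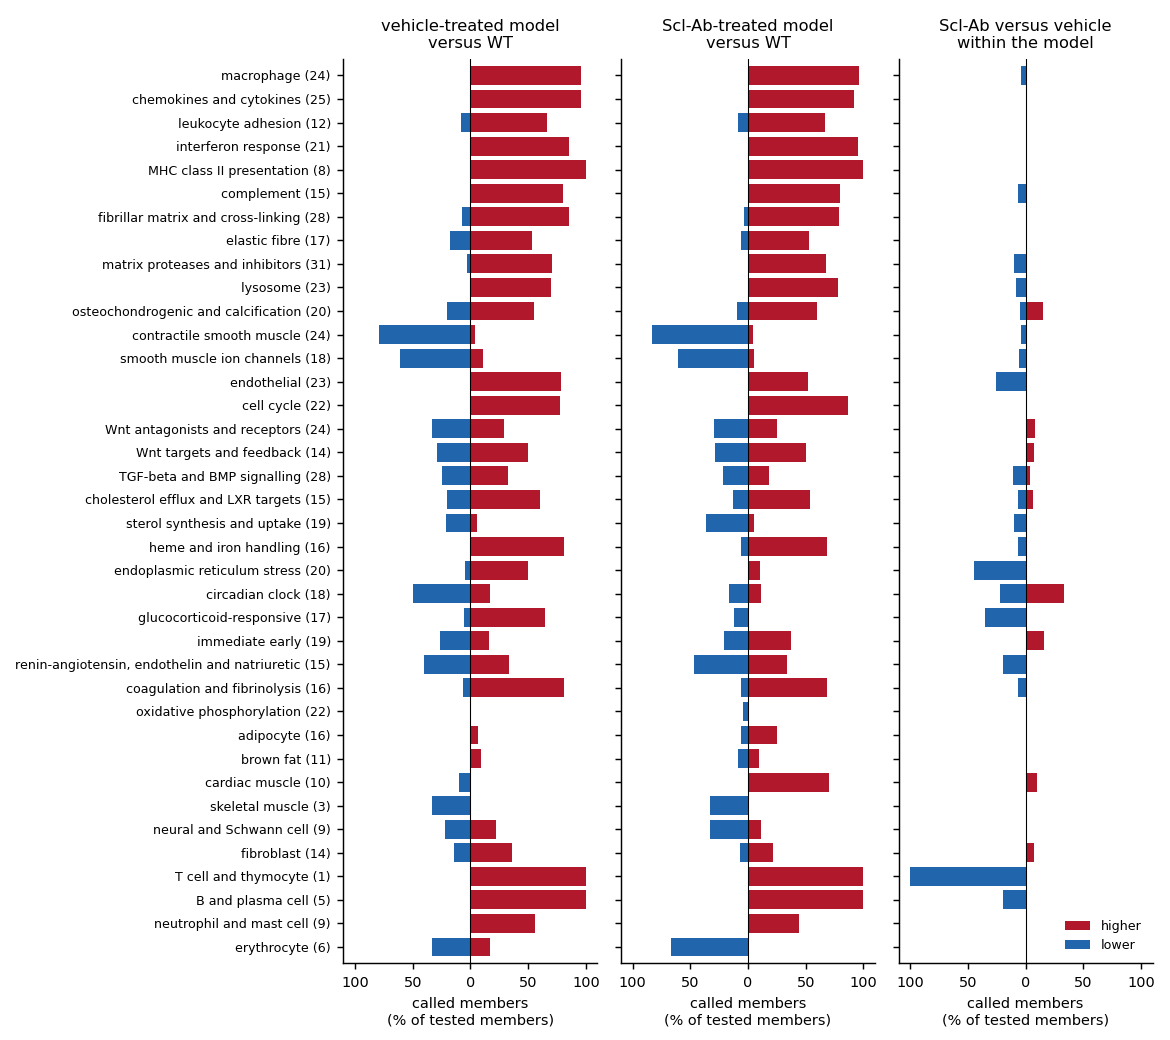
Bars give the percent of tested members of each gene list called higher (red, right) and lower (blue, left) in the 3 comparisons, with the number of tested members in brackets. The left and middle panels share the WT libraries, and in the right panel the endoplasmic reticulum stress list has 9 of 20 members lower and the circadian clock list 6 of 18 higher and 4 lower.

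Of 15 genes of cholesterol efflux and liver X receptor targets 8 rose and 2 fell, namely Apoe and Nr1h2, a liver X receptor. The share of all tested genes that rose was 19.8%. Abcg1, a cholesterol exporter, was at 0.635 to 1.54 (median 1.01) in WT, 7.32 to 22.4 (median 12.5) with vehicle and 6.88 to 13.8 (median 10.1) with Scl-Ab, and Abca1 rose by log2 1.49 ± 0.13. Of 19 genes of sterol synthesis and uptake 7 fell and 1 rose, a share of falls near the 30.5% of all tested genes. Srebf2, the regulator of the pathway, was at 19.3 to 26.2 (median 22.3) in WT and 8.21 to 16.1 (median 13.2) with Scl-Ab (log2 -0.82 ± 0.12), and the libraries did not overlap. Of 16 heme and iron genes 11 rose, among them Hmox1, heme oxygenase 1 (1.31 ± 0.22), and Ftl1, ferritin light chain, at 373 to 551 (median 516) in WT and 819 to 1837 (median 1035) with Scl-Ab.

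Cell cycle genes were at low levels and rose: 19 of 22 were higher, and in 13 the groups did not overlap. Among all tested genes 19.8% were higher, and in 5.74% all Scl-Ab libraries lay above all WT libraries. Members under 1 in every WT library, such as Mki67, passed the filter on low values through the ApoE KO libraries alone. For such members, being tested and being higher than WT are linked. Mki67 was at 0.184 to 0.505 (median 0.299) in WT, 1.44 to 4.30 (median 2.01) with vehicle and 1.45 to 7.44 (median 1.80) with Scl-Ab, and Cdk1 at 0.249 to 1.58 (median 0.937), 3.35 to 8.82 (median 4.14) and 2.58 to 18.9 (median 4.17). A filter on values of at least 5 left 2 of the 22 to test, and neither passed, so the other members rest on low values. Among 16 genes of clotting and clot lysis 11 were higher and 1 lower (F3, tissue factor, log2 -0.61 ± 0.17).

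Sost (chromosome 11, 101962458 to 101967015) was at 509 to 876 (median 628) in WT, 219 to 647 (median 381) with vehicle and 128 to 456 (median 309) with Scl-Ab. All 10 Scl-Ab libraries lay below all 10 WT libraries (log2 -1.29 ± 0.22, limma adjusted p = 1.44e-05), and the antibody and vehicle groups overlapped (log2 -0.52, 95% interval -0.97 to -0.06, limma adjusted p = 0.141). Among 24 tested Wnt antagonists and receptors 6 rose and 7 fell, shares near those of all tested genes (19.8% higher and 30.5% lower). The secreted inhibitor Wif1 fell (log2 -1.21 ± 0.20), while Frzb, a Frizzled-related antagonist, rose by 1.93 ± 0.15 and Sfrp1 by 1.14 ± 0.24. The sclerostin receptors Lrp5 (-0.06 ± 0.10) and Lrp6 (0.16 ± 0.09) did not pass, and Lrp4, which anchors sclerostin, rose by 0.44 ± 0.08. Against vehicle 2 of the 24 antagonists and receptors were called higher and 22 did not pass, while 2.64% of all tested genes were higher. Of 14 Wnt targets and feedback genes 7 rose against WT, while 19.8% of all tested genes did. Another 4 fell, a share near the 30.5% of all tested genes. Axin2, a general readout of Wnt signalling, was at 1.22 to 2.25 (median 1.42) in WT, 0.749 to 1.80 (median 0.966) with vehicle and 0.737 to 2.46 (median 1.57) with Scl-Ab, and passed neither against WT (-0.02) nor against vehicle (0.23, 95% interval 0.00 to 0.46, limma adjusted p = 0.197). Nkd2, a feedback inhibitor, was higher than in both other groups (1.11 ± 0.11 against WT and 0.43 against vehicle, limma adjusted p = 0.0216), the latter lost by the Wilcoxon test.

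Of TGF-beta and BMP genes most did not pass: of 28 tested members 5 rose and 6 fell, with 8 rising after TMM scaling or without Scl-Ab library 17. As deposited, both shares of the list were below those of all tested genes (19.8% higher and 30.5% lower). The genes named next are single members and not a change of the list. The BMP targets Id1 (-0.69), Id2 (-1.11) and Id3 (-0.44) were lower on the log2 scale, and Ctgf, a TGF-beta target, was higher (0.96). Tgfbr1, the type I receptor, was at 32.2 to 61.1 (median 40.7) in WT, 49.0 to 96.7 (median 76.0) with vehicle and 33.2 to 68.4 (median 55.0) with Scl-Ab, lower than with vehicle (log2 -0.49, 95% interval -0.77 to -0.20, limma adjusted p = 0.0317). This call ended without vehicle library 2, 4 or 8 or Scl-Ab library 12, 15 or 17.

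Some markers of tissue next to the aorta differed between the groups and between libraries. Of 10 tested cardiac muscle genes 7 were higher with Scl-Ab than in WT, and 4 without Scl-Ab library 10, without Scl-Ab library 14 or without WT library 25. The summed level of that list was 35.8 to 533 in WT (median 89.7), 37.6 to 552 with vehicle (median 112) and 59.6 to 1149 with Scl-Ab (median 449). The calls of Tnni3 and Myh6 ended without those libraries too. Tnni3, cardiac troponin I, was at 2.74 to 55.9 (median 7.88) in WT and 3.37 to 118 (median 36.5) with Scl-Ab, and Myh6, the alpha cardiac myosin heavy chain, at 0.125 to 25.98 (median 3.16) and 0.0207 to 57.6 (median 19.5). The groups overlapped in all 10 genes, and of the list only Nppa was listed at 0 in libraries of each group. Of 16 adipocyte genes 4 rose and 1 fell, and 7 rose without WT library 28, Scl-Ab library 13 or Scl-Ab library 18. Their summed level was 570 to 3909 in WT (median 2062), 906 to 14012 with vehicle (median 2371) and 1247 to 10965 with Scl-Ab (median 4689). No adipocyte gene of the list was at 0 in any group. Of 11 brown fat genes 1 rose and 1 fell, of 14 fibroblast genes 3 rose and 1 fell, and of 9 neural and Schwann cell genes 1 rose and 3 fell. Over all tested genes, the shares to set beside the counts of these lists were 19.8% higher and 30.5% lower. Most members of the brown fat, fibroblast and neural lists did not pass. Globin genes, a trace of blood, were lower: of 6 erythrocyte genes 4 fell, led by Hba-a1 (log2 -1.44 ± 0.31), though near-identical globin copies cannot be counted apart. The summed erythrocyte level was 469 to 1096 in WT (median 698), 216 to 2075 with vehicle (median 406) and 132 to 793 with Scl-Ab (median 263). With the adipocyte level as a covariate 6600 genes were called between Scl-Ab and WT. The part of the cardiac and erythrocyte markers in the results was not tested.

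**Figure D3:**
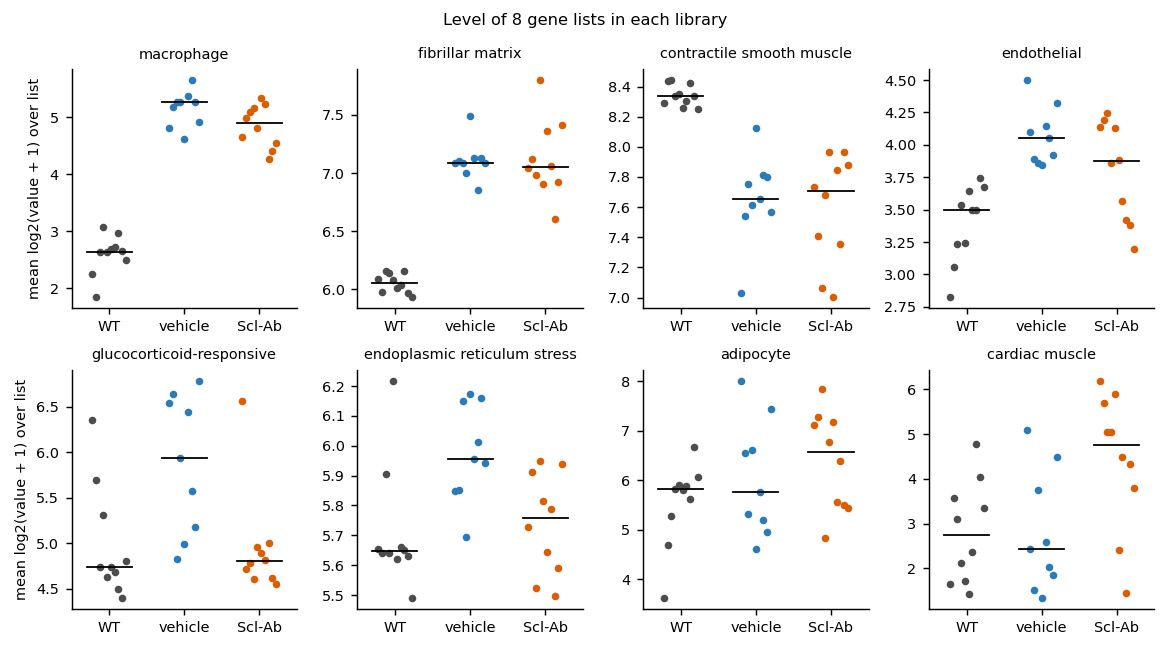
Each point is the mean log2(value + 1) over the tested members of a list in 1 library, with group medians as lines. The Scl-Ab and WT groups do not overlap for the macrophage, fibrillar matrix and contractile lists, and overlap for the other 5, of which the cardiac list ranges from 1.34 to 6.18 over all libraries.

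The next question was which changes of the vehicle-treated disease model were also present under the antibody. A disease change was taken as a called difference of at least 2-fold between vehicle and WT, which held for 833 genes (650 higher and 183 lower). In that comparison 7255 genes were called (53.7%), 3065 higher (22.7%) and 4190 lower (31.0%). Of the 833, 793 (95.2%) were also called in the same direction between Scl-Ab and WT, 623 of the higher and 170 of the lower genes. Both comparisons use the same WT libraries, so part of this sharing comes with the design, and the direct test is that of Scl-Ab against vehicle. There, 744 of the 793 were not called, 42 were called back toward WT and 7 further from WT. Between Scl-Ab and vehicle 7.44% of all tested genes were called either way. A missed call does not show equal levels: the 95% interval of the difference lay within 1.5-fold either way for 335 of the 650 higher and 92 of the 183 lower genes, against 86.8% of all tested genes, and within 2-fold for 556 and 156, against 96.9% of all tested genes. Among all 7255 genes called between vehicle and WT, of any size, 524 were called the opposite way between Scl-Ab and vehicle, 264 of them lower with Scl-Ab. Of the 524, 370 were not called between Scl-Ab and WT and 148 were called there in the direction of the disease change. As the vehicle libraries enter both comparisons, these counts are a description.

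Over all genes, Scl-Ab and vehicle differed in 1005 (7.44%), of which 356 were higher (2.64%) and 649 lower. Only 11 were at least 2-fold higher and 18 at least 2-fold lower. The number of calls depended on a clock index in the model. The index, the mean log2 value of Dbp, Per1, Per2, Per3, Tef, Hlf, Nr1d1, Nr1d2 and Ciart minus that of Arntl, Npas2, Nfil3 and Clock, had medians of 2.43 in WT (-0.21 to 4.19), 0.59 with vehicle (-1.52 to 2.01) and 2.98 with Scl-Ab (1.50 to 3.78). With this index as a covariate limma called 3 genes between Scl-Ab and vehicle (847 had an unadjusted p under 0.05), while the index itself differs between these groups and holds genes that were called. Without vehicle library 2, 547 genes were called. Of 60 genes called against vehicle and named by rule or in the text, 59 lost the call with the index as a covariate and Tef, itself in the index, turned direction (log2 -0.08). What set the index was not tested.

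**Figure D4:**
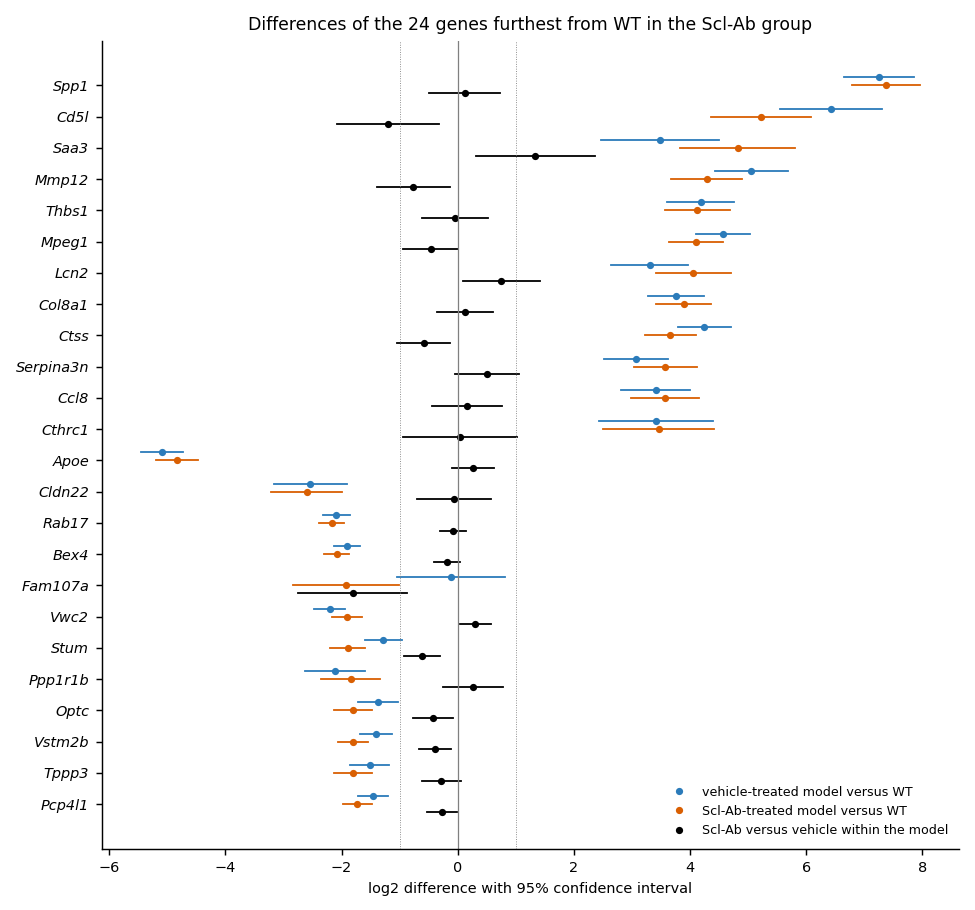
Points are log2 differences with 95% intervals for the 24 genes furthest from WT in the Scl-Ab group, in 3 comparisons, with dotted lines at 2-fold. The direct difference between the ApoE KO groups (black) excludes 0 by its own interval in Cd5l, Saa3, Mmp12, Ctss, Lcn2, Fam107a, Vwc2, Stum, Optc, Vstm2b and Pcp4l1, of which Fam107a and Stum pass after adjustment.

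Some of the 42 genes that were still called against WT, and were called back toward it against vehicle, are named here. They were chosen after their values were seen. The choice of the 833 genes used the vehicle libraries, which also enter this comparison, so the balance of 59 called back to 7 called further is a description. Besides Atp6v0d2, Clec7a, Il7r and Cd38 they held Havcr2, the inhibitory receptor TIM-3 (log2 1.83 for vehicle and 1.27 for Scl-Ab against WT), Sla, an adaptor of antigen receptor signalling (2.22 and 1.41), Tlr13, a receptor for bacterial RNA (2.17 and 1.65), Serpina3g, a serine protease inhibitor (2.42 and 1.35), and Ctsl, cathepsin L (1.31 and 0.87). Plvap, the diaphragm protein of endothelial fenestrae, was at 10.7 to 15.8 (median 12.9) in WT, 21.8 to 41.0 (median 30.4) with vehicle and 14.6 to 29.8 (median 22.3) with Scl-Ab, with a median between those of the other groups. Edn1, the vasoconstrictor endothelin 1, was at 2.64 to 6.88 (median 4.22), 6.91 to 19.1 (median 10.0) and 3.21 to 10.95 (median 6.82), and Gja4, the arterial gap junction protein connexin 37, was at log2 1.26 and 0.65 against WT. The Edn1 calls ended under most alternatives run, and that of Plvap without vehicle library 2, 6 or 7 or Scl-Ab library 16, 17, 18 or 19. The 7 genes further from WT were Arc, an immediate early gene (log2 1.02 for vehicle and 2.16 for Scl-Ab against WT), Myo7a (1.47 and 1.89), and, among falls, Gm830 (-1.74 and -2.44), Stum (-1.28 and -1.90), Tub (-1.12 and -1.69), the potassium channel subunit Kcnab1 (-1.08 and -1.66) and Napepld, an enzyme of anandamide synthesis (-1.01 and -1.54).

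Of 23 tested endothelial genes, 12 rose against WT with Scl-Ab and 18 with vehicle, and 6 were lower with Scl-Ab than with vehicle: Pecam1, Esam, Nos3, Vwf, Edn1 and Plvap. Of all tested genes 4.80% were lower with Scl-Ab than with vehicle, while 19.8% with Scl-Ab and 22.7% with vehicle rose against WT. The libraries of the Scl-Ab group did not move together: the mean log2(value + 1) of the list was 3.85 to 4.50 with vehicle, 4.14, 4.19, 4.25, 3.86, 4.13 and 3.88 in Scl-Ab libraries 10 to 15, and 3.57, 3.42, 3.38 and 3.195 in libraries 16 to 19, which lay below every vehicle library and inside the WT range of 2.83 to 3.74. Nos3, the endothelial nitric oxide synthase, was at 4.14 to 9.03 (median 5.88) in WT, 6.40 to 13.1 (median 9.44) with vehicle and 3.16 to 9.44 (median 5.60) with Scl-Ab, and Pecam1, an endothelial junction protein, at 56.1 to 103 (median 86.4), 88.7 to 126 (median 105) and 38.2 to 105 (median 71.1). The Scl-Ab medians were below those of both other groups. All groups overlapped in both genes. The number of lower members was 3 with equal totals per library, 3 without Scl-Ab library 18 and 1 by the Wilcoxon test.

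Another 40 of the 833 disease changes were not called between Scl-Ab and WT, 17 of them called back toward WT against vehicle and 23 called in neither. They held clock genes (Dbp, Hlf, Per3, Tef, Arntl, Nfil3 and Per2) and genes known to be induced by glucocorticoids (Fkbp5, Zbtb16, Errfi1, Cdkn1a, Tsc22d3, Ddit4, Pdk4, Cebpd and Mt2), with others such as Adamts4, Slc45a3, S100a9 and Irf4. Dbp (chromosome 7, 45705088 to 45710203), a clock-controlled transcription factor, was at 27.96 to 333 (median 171) in WT, 7.97 to 109.5 (median 37.7) with vehicle and 78.8 to 187 (median 151) with Scl-Ab. Arntl, the clock activator BMAL1, whose phase is opposite, was at 0.795 to 19.1 (median 4.33), 4.61 to 22.7 (median 10.0) and 0.899 to 4.94 (median 1.56). The Scl-Ab libraries lay inside the wide WT range in both genes. The vehicle libraries reached below that range in Dbp and above it in Arntl, and all groups overlapped. The log2 difference of Scl-Ab from vehicle was 2.21, 95% interval 1.20 to 3.22 for Dbp (limma adjusted p = 0.00953) and -1.94, 95% interval -2.80 to -1.07 for Arntl (limma adjusted p = 0.00783). Of 18 clock genes 6 were higher and 4 lower than with vehicle, against 2 higher and 3 lower than in WT. The shares of all tested genes were 2.64% higher and 4.80% lower than with vehicle, and 19.8% higher and 30.5% lower than in WT. The 6 became 3 without the libraries whose title codes start with 21 (Scl-Ab) and 11 (vehicle), a code that the labels do not explain.

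Fkbp5, a chaperone of steroid receptors, was at 6.94 to 123 (median 10.7) in WT, 18.6 to 129 (median 83.5) with vehicle and 8.23 to 157 (median 11.4) with Scl-Ab. Zbtb16, the transcription factor PLZF, was at 2.99 to 39.1 (median 5.67), 10.1 to 38.4 (median 31.2) and 2.75 to 44.8 (median 4.43). Scl-Ab library 10 held the highest value of its group in both, and the other 9 lay between 8.23 and 15.5 for Fkbp5 and between 2.75 and 4.84 for Zbtb16. The log2 difference from vehicle was -2.0005, 95% interval -3.07 to -0.93 for Fkbp5 (limma adjusted p = 0.0207) and -2.13, 95% interval -3.02 to -1.248 for Zbtb16 (limma adjusted p = 0.00592), and without library 10 it was -2.37 and -2.45. By the Wilcoxon test neither passed. Of 17 glucocorticoid-responsive genes 6 were lower than with vehicle (9 without Scl-Ab library 10 and 1 by the Wilcoxon test), and 2 were lower than in WT, Fam107a and the phosphatase Dusp1. The shares of all tested genes with Scl-Ab were 4.80% lower than with vehicle and 30.5% lower than in WT. In the vehicle group 11 of the 17 were higher than in WT, against 22.7% of all tested genes. WT libraries 20, 21 and 23 had Fkbp5 values inside the range of the vehicle group, at 123, 79.3 and 37.0.

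**Figure D5:**
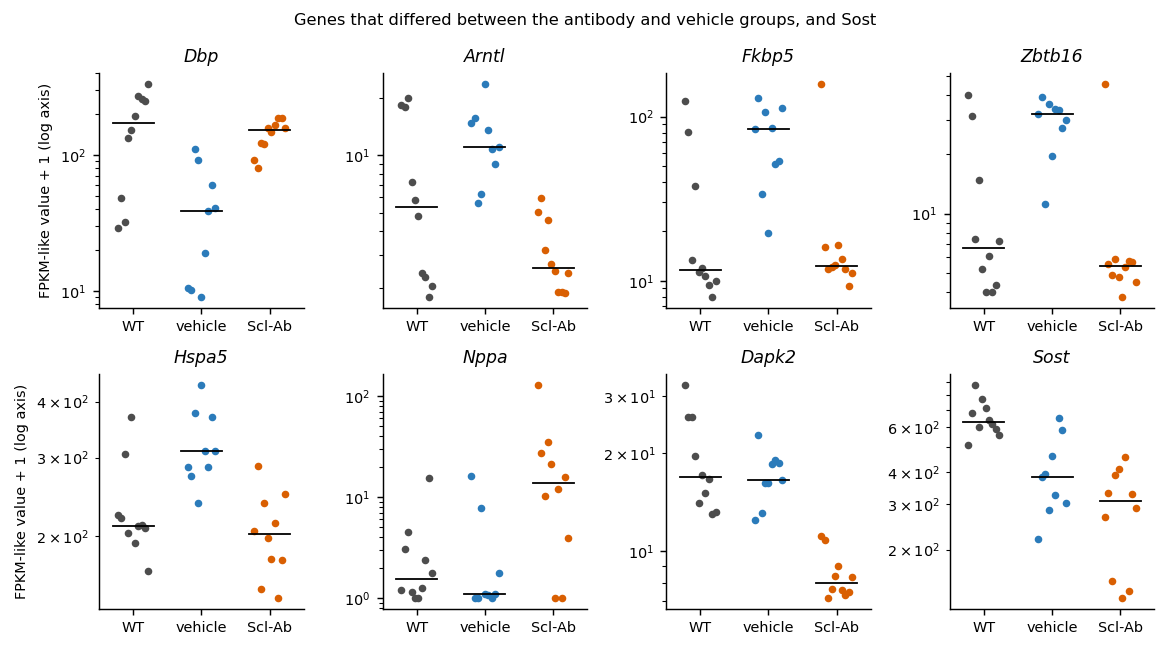
Points are single libraries (value + 1 on a log axis) in the 3 groups, with group medians as lines, for 7 genes that differed between Scl-Ab and vehicle and for Sost. Scl-Ab library 10 is the high point in Fkbp5, Zbtb16 and Nppa, and all Scl-Ab libraries lie below all vehicle libraries in Dapk2 alone of the 8.

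Of 20 tested genes of the endoplasmic reticulum stress response 2 rose against WT with Scl-Ab (6 after TMM scaling). As deposited, 19.8% of all tested genes did. With vehicle 10 rose and 1 fell, while 22.7% of all tested genes were higher and 31.0% lower. Between Scl-Ab and vehicle 9 were lower, against 4.80% of all tested genes. Hspa5, the chaperone BiP, was at 166 to 369 (median 210.2) in WT, 236 to 435 (median 309) with vehicle and 144 to 286 (median 201) with Scl-Ab (log2 against vehicle -0.66, 95% interval -0.94 to -0.38, limma adjusted p = 0.00623). Creld2, a secreted chaperone, was at 22.3 to 46.6 (median 24.4), 23.7 to 44.1 (median 32.9) and 17.4 to 31.5 (median 20.8), and Manf, a secreted factor made under such stress, at 60.8 to 156 (median 69.8), 68.0 to 137 (median 99.0) and 49.8 to 88.3 (median 63.3). The groups overlapped in all 3 genes. The 9 became 2 with equal totals per library, 4 without vehicle library 5 or Scl-Ab library 18, 5 without vehicle library 3 or 6 or Scl-Ab library 12, and 3 without the libraries with title codes starting with 21 and 11. The endoplasmic reticulum stress element, CCAAT and CCACG parted by 9 bases, on either strand, was held by 39 of the 32851 promoter windows (0.119%) and by those of 7 of the 18 listed genes with a window (38.9%): Calr, Canx, Creld2, Dnajc3, Hsp90b1, Hspa5 and Pdia6. Of these, Creld2, Dnajc3 and Hspa5 were called lower than with vehicle, Dnajc3 not without vehicle library 2, 3, 5, 6 or 8 or Scl-Ab library 12, 17 or 18. The windows of Hspa5 (chr2:34771840-34772139) and Creld2 (chr15:88819396-88819695), both on the plus strand of GRCm38.p6 from RefSeq, are shown because both genes were called, with the element in capitals, on the other strand in Creld2.
Hspa5: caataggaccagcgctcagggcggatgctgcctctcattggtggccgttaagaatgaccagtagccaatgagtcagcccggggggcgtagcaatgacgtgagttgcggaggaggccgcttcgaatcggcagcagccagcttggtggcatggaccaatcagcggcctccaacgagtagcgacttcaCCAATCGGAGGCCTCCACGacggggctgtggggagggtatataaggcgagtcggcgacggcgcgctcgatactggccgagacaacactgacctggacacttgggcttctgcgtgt
Creld2: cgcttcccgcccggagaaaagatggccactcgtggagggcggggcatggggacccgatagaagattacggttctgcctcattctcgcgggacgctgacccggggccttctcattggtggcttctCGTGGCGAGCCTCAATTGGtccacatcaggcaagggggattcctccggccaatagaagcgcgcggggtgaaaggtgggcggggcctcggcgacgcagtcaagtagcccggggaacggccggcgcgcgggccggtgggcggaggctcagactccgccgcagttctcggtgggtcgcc

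Some differences from WT were called with the antibody and not with vehicle. In 279 of the 13510 tested genes, 49 higher and 230 lower, Scl-Ab was called the same way against WT and against vehicle while vehicle against WT had an unadjusted p over 0.05. The Scl-Ab libraries enter both calls, and a missed call does not show that vehicle equals WT, so the count is a description. Its balance depends on the scale: the higher share of all Scl-Ab against vehicle calls was 35.42% as deposited, 49.44% after TMM scaling and 65.04% with equal totals. Of the 279 genes, the 8 with the largest difference from vehicle are named. Dapk2 (chromosome 9, 66158223 to 66272242), a calcium-dependent kinase of autophagy and cell death, was at 12.01 to 31.5 (median 15.9) in WT, 11.5 to 21.8 (median 15.5) with vehicle and 6.16 to 10.2 (median 6.96) with Scl-Ab. All Scl-Ab libraries lay below all other libraries. The log2 difference was -1.01, 95% interval -1.31 to -0.70 from vehicle (limma adjusted p = 0.000735) and -1.13 ± 0.15 from WT, and it was called under every alternative run except the clock index as a covariate. Gm20412 was at 9.92 to 41.8 (median 21.95), 7.00 to 41.1 (median 29.9) and 0 to 14.8 (median 0.109), but this model (chromosome 2, 158117154 to 158117905, plus strand) overlaps Tgm2 on the other strand and lies within Rprd1b, so its counting is uncertain. Npas2, a partner of the clock activator, was at 1.102 to 14.2 (median 4.43), 1.84 to 16.8 (median 6.30) and 0.736 to 2.55 (median 1.11), and the mitochondrial carrier Slc25a34 at 10.7 to 53.6 (median 20.7), 6.82 to 32.7 (median 19.5) and 3.59 to 15.4 (median 7.47). Tmem82 (log2 against vehicle -1.07) and Aplnr, the apelin receptor (0.94), each lost the call without vehicle library 5, 6 or 7 and without Scl-Ab library 12 or 15, each left out alone.

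Fam107a, an actin-associated protein induced by glucocorticoids, was at 5.52 to 71.6 (median 9.14) in WT, 4.72 to 26.2 (median 12.6) with vehicle and 1.248 to 29.2 (median 2.34) with Scl-Ab, where library 10 again stood above the other 9. Nppa, atrial natriuretic peptide, was at 0 to 14.5 (median 0.528), 0 to 15.1 (median 0.0890) and 0 to 128 (median 12.9) (log2 against vehicle 2.52, 95% interval 0.98 to 4.05, limma adjusted p = 0.0387). Without Scl-Ab library 10 its difference was 2.12 (limma adjusted p = 0.0569), and the summed cardiac muscle level given above was higher in the same group, and its part in the Nppa result was not tested. Among immediate early genes 7 of 19 were higher and 4 lower than in WT, against 19.8% and 30.5% of all tested genes. The share of falls was below that of all tested genes. Egr3, a transcription factor of recent cell activation, was at 2.90 to 4.40 (median 3.24), 1.57 to 5.53 (median 3.47) and 3.30 to 15.6 (median 7.31), with overlap (log2 against vehicle 0.93, 95% interval 0.54 to 1.32, limma adjusted p = 0.00598). As single members, Fos (-0.92) and Nr4a1 (-1.09) were lower than in WT. Of 22 oxidative phosphorylation genes 1 passed against WT (Sdhc, lower, log2 -0.32 ± 0.12), a call that ended after TMM scaling and without WT library 24 or 28 or Scl-Ab library 13, 17, 18 or 19, and 10 were lower with the adipocyte level as a covariate.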

How the data were processed

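RNA-seq of aortic arch (stranded mRNA libraries) was analysed in 29 libraries. Per the file headers, the deposited values are "FPKQ" by gene symbol, a term the headers do not spell out; the authors' values behave as FPKM scaled to a common upper level and are called FPKM-like. The submitters' processing notes name GRCm38 and DESeq2 1.10.1. The sources used here do not name the aligner or the counting. No counts were used, so depth is unknown and gives no interval.

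For the tests, 13510 genes were kept, those that reached 1 in 9 or more of the 29 libraries. Genes under 1 in every WT library, such as Cd5l, Saa3, Il6, Il7r, Atp6v0d2, Runx2 and Mki67, passed through the ApoE KO libraries alone. For these, being tested and being higher than WT are linked. A pseudocount of 1 was added before log2. One limma fit (version 3.58.1, under R 4.3.3) gave 3 group means, with a variance trend and robust estimation, and p-values were adjusted by Benjamini-Hochberg. A gene was called at adjusted p under 0.05. On simulated data the Scl-Ab against WT test, run on 13510 genes, recovered 30% of genes changed 1.25-fold, 74% at 1.5-fold, 92% at 2-fold and 96% at 3-fold. It also called 14 unchanged genes. The simulation changed 50 genes at each fold and gave all groups the same spread. In the data 50.4% of genes were called and the spread was larger with Scl-Ab for 83.8%, so these rates need not hold there. Alternatives covered the pseudocount, filter, scaling, covariates, weights, a Wilcoxon rank sum test and leaving out libraries. TMM scaling was written out in R as a scaling of the values.

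Members, groups and gene lists were chosen with earlier results of these data known. Genes were named by rule: Apoe and Sost; the 12 largest rises and falls with a mean of at least 5; the 3 members of each list with the smallest p; and the 8 largest changes against vehicle among genes called opposite to disease or with the antibody only. Other genes were named after their values were seen. Some named genes are not reported here. Coordinates are GENCODE M21.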

Additional observations from a re-analysis of the deposited data

Results flagged for a closer look

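In 120 combinations of a named gene and a group (40 genes, 3 groups), the gap of the highest or lowest library to the next was set against the group's range. In 22 the gap of the highest library exceeded the 95% critical value of Dixon's test, and no lowest library was flagged. That critical value assumes normal values, while these were not logged and most of the genes were picked for large changes. No chance rate is given for the flags, which are a description. Of these, 11 lay in the Scl-Ab group, 8 in the vehicle group and 3 in WT.

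Scl-Ab library 10 accounted for 5: Fkbp5 at 157 (next 15.5), Zbtb16 at 44.8 (next 4.84), Fam107a at 29.2 (next 2.78), Errfi1 at 75.3 (next 27.2) and Nppa at 128 (next 33.7). Among glucocorticoid-responsive genes, without this library the log2 difference from vehicle was -2.37 for Fkbp5 (limma adjusted p = 0.00261), -2.45 for Zbtb16 (limma adjusted p = 0.000513) and -2.02 for Errfi1, a feedback inhibitor of the EGF receptor (limma adjusted p = 0.00664). In WT, Errfi1 was highest in library 20 at 142 (next 42.2).

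Macrophage genes were highest in single libraries of each group. Spp1 reached 1524 in vehicle library 6 (next 839.7), and Cd5l reached 423 in vehicle library 7, 176 in Scl-Ab library 16 and 0.0898 in WT library 23. Mmp12 reached 79.1 in Scl-Ab library 16. The acute phase gene Saa3 was at 129 in Scl-Ab library 18 and Serpina3n at 361 in Scl-Ab library 12. Cthrc1, of activated fibroblasts, was at 205 in Scl-Ab library 13 and 44.2 in vehicle library 1.

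Cldn22 stood at 4.77 in Scl-Ab library 17, the library that lay apart on the third principal component, and at 2.599 in vehicle library 7. Stum was at 16.1 and Npas2 at 16.8 in vehicle library 5, and Aplnr at 4.78 in vehicle library 2. Nppa was at 14.5 in WT library 28 and 15.1 in vehicle library 1.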

How the results depend on the processing

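The count of genes called between Scl-Ab and WT was 4902 to 8153 over 13 alternatives and 6382 to 7674 with single libraries left out. The share of higher calls was 53.1% after TMM scaling and 39.02% to 39.61% with libraries left out. Disease changes called the same way made up 94.42% to 98.38% over the alternatives and 94.0% to 96.14% with single libraries left out. Between Scl-Ab and vehicle (1005 calls) the count was 447 with no filter, 369 with equal totals, 568 with GC and length trends removed, 309 in a fit of the 2 groups alone, 3 with the clock index and 1638 with the adipocyte level as a covariate, 577 without the libraries with title codes starting 21 and 11, and 413 by the Wilcoxon test. It was 547 to 1223 with single libraries left out (547, 628 and 607 without vehicle 2, 5 and 6). The higher share there was 49.44% after TMM scaling, 65.04% with equal totals and 0% of the 3 clock-adjusted calls. The 59 disease changes called back toward WT were 28 with a pseudocount of 5, 33 with no filter, 36 with equal totals, 28 in the fit of the 2 groups alone, 93 with array weights, 0 with the clock index (limma, with 113 at an unadjusted p under 0.05) and 94 with the adipocyte level as a covariate, 32 without the libraries with those title codes, 22 by the Wilcoxon test, and 37 to 72 with single libraries left out (37 without vehicle 2). Tef turned direction with the clock index (log2 -0.0829, from 0.95). The causes were not tested. Of 175 named genes called against WT, 7 lost the call by the Wilcoxon test and 8 without at least 1 single library. Of 60 called against vehicle, the numbers were 32 and 18. No paired analysis by replicate number was possible because the groups share none. The last 2 digits of the title codes fall into runs of 12 to 15 and 27 to 33 in both ApoE KO groups, which the labels do not explain. Alternatives chosen after seeing the data used them for Scl-Ab against vehicle. With the run as a covariate 1118 genes were called and 62 disease changes were back toward WT. In the 8 pairs with shared last digits the correlation of deviations was -0.54 to 0.62 and over 0.1 in 2, so the digits were not taken as a pairing. In these libraries 180 genes were called (23.33% higher, 17 back toward WT), and with the digits as a block limma called 7 (0% higher, 0 back toward WT, 147 at an unadjusted p under 0.05). Depth is unknown, so low values carry no counting error here.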
